A study of Homo sapiens with 6 samples.

Results

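The proteasome subunit genes described here are the 49 gene names on the array that begin with PSMA, PSMB, PSMC, PSMD, PSME, PSMF or PSMG followed by a number, out of 36328 gene names in all. Of these, 48 encode subunits, activators, an inhibitor or assembly chaperones of the proteasome. The remaining name, PSMC3IP, meets the letters of the rule only: it encodes a meiotic recombination factor. Each gene was read by its brightest probe over the 6 arrays.

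RNA came from MOLT-4, a human T-cell acute lymphoblastic leukaemia line, that had received the empty vector (mock, 3 arrays) or a vector for NUDT16 (3 arrays), an enzyme that removes the cap from RNA. Total RNA from each sample was passed over an antibody to the 5′ cap (the m7G cap of messenger RNA and the m3G cap of small nuclear RNA), and the eluate was reverse transcribed, labelled with Cy3 and hybridised to a single-colour Agilent array. The comparison asks which transcripts are more or less abundant in the capped fraction when NUDT16 is present. The labels do not say whether the replicates are separate cultures, so p-values measure only the spread between these samples. The input RNA was not analysed here, and in bulk RNA a transcript's capped share, its total amount and the number of cells behind it cannot be told apart.

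The proteasome is the cell's main protease for proteins tagged with ubiquitin. A barrel of stacked alpha and beta rings holds the proteolytic sites on the inside of the beta rings, and a regulatory particle with a ring of ATPases (the base) and a lid recognises, unfolds and feeds in the substrates. Lymphoid cells also make inducible beta subunits that replace the constitutive catalytic ones and change which peptides are cut for antigen presentation. When proteasome activity falls, the transcription factor NRF1 (encoded by NFE2L1) can raise most subunit genes together, while the inducible ones respond to interferon.

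A probe was counted as detected on an array when over 50% of its usable spots were well above background by the scanner software. The share of spots well above background was 39.3% to 51.1% in the mock group and 42.3%, 14.6% and 52.0% in replicates 1, 2 and 3 of the NUDT16 group, so NUDT16 replicate 2 was the dimmest array. Each slide held the mock and the NUDT16 array of 1 replicate number, and such a couple of arrays is called a pair below. T-lineage markers were present (12 of 18 detected on all 6 arrays, 1 on none), with a summed scaled signal of 4.51 to 4.58 on the log2 scale in the mock group and 4.59 to 4.82 in the NUDT16 group. Of the markers of other cells, 2 of 5 B-lineage and 2 of 5 epithelial or fibroblast ones (KRT8 and KRT18) were detected on all 3 arrays of a group and 0 of 4 myeloid ones, with summed signals of -2.06 to -1.20, -2.53 to -1.59 and -6.44 to -6.22 in the mock group and -1.71 to -0.34, -2.69 to -1.14 and -6.33 to -3.53 in the NUDT16 group. Their part in the results was not tested. The sums include undetected probes, many of which read higher on the dim NUDT16 replicate 2. The myeloid markers MPO, CSF1R and ITGAM were detected on no array. They read -5.48, -5.65 and -5.70 on NUDT16 replicate 2, beside -9.50, -9.67 and -8.60 on NUDT16 replicate 1. The upper end of the myeloid sum is therefore not a measured level. No probe for NUDT16 itself was detected on any array. Only NUDT16P1, of the 13696 genes tested, passed the threshold of an adjusted p under 0.05 in limma's test over all genes tested (adjusted p = 0.00082). Its brightest probe was detected on the 3 NUDT16 arrays and on 0 mock arrays, and its other probe on no array.

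Probe sequences are shown for 6 members, because the share of G and C in the probe moved with the differences reported below. Each probe has 60 bases, is written 5′ to 3′ with G and C in capitals, and has hg19 coordinates from the array files. All 6 cover a genomic span longer than the probe itself, so each joins separate stretches of its transcript. The probes for PSMA3, PSMC5 and PSMD12 (36.7%, 38.3% and 40.0% G and C) belong to genes that read lower in the NUDT16 group by mean difference. Those for PSMB6, PSMB8 and PSMD8 (53.3%, 55.0% and 53.3%) belong to genes that read higher. PSMA3 was higher in replicates 1 and 3 (log2 differences 0.04 and 0.22), and PSMB6 was lower in replicate 3 (-0.09). PSMD12 was not well above background on NUDT16 replicate 2.
PSMA3, chr14:58737175-58737682, plus strand: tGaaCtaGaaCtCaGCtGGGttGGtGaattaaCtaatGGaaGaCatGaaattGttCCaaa
PSMC5, chr17:61907288-61907530, plus strand: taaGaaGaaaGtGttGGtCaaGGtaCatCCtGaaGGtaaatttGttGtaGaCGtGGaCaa
PSMD12, chr17:65337126-65338318, minus strand: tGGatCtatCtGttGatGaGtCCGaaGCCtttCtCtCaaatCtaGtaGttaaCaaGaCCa
PSMB6, chr17:4701404-4701589, plus strand: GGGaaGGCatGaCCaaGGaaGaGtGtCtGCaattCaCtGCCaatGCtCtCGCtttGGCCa
PSMB8, chr6:32810023-32810490, minus strand: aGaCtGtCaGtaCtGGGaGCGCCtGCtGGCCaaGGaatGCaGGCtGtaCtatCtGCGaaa
PSMD8, chr19:38871613-38872789, plus strand: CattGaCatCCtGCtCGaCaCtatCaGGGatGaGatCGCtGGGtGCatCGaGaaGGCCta

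No proteasome gene passed the test. By mean difference, 7 of 7 alpha ring genes, 6 of 6 base ATPases and 6 of 8 lid genes read lower in the NUDT16 group. On the higher side were 5 of 7 constitutive beta genes and the 3 measured inducible beta subunits. Over all genes tested, 54.2% read lower, and over those detected on all 6 arrays 39.6% did. The alpha, beta and ATPase genes counted here were each detected on all 6 arrays. Under the other ways of scaling the arrays given below, 5 of 6 ATPases were lower. With replicates 1 and 3 alone, 4 of 7 alpha genes, 5 of 6 ATPases and 6 of 8 lid genes were lower. Below the median of all genes in that fit lay 1 of 7, 3 of 6 and 6 of 8. Differences between these groups of genes were not tested. Of the 49 members, 47 were detected on all 3 arrays of at least 1 group and were tested, 38 of them were detected on all 6 arrays, and 2 (PSMA8, the testis alpha subunit, and PSMB11, the beta subunit of thymic epithelium) were detected on none. In limma's fit, 0 of 47 were called at an adjusted p under 0.05 (over all genes tested, 0.0073% were called) and none reached 0.05 before adjustment (0 of 47, beside 0.0511% of all genes), with adjusted p-values of 0.998 throughout. With the replicate pair as a block, 0 of 47 were called (0.0073% of all genes, adjusted p 0.488 to 0.990). Before adjustment 5 were under 0.05 in that fit, or 10.6% beside 8.53% of all genes. These were PSMC1, PSMC2, PSMC3IP, PSMD12 and PSMD5, all lower in the NUDT16 arrays. PSMC3IP, which is not a proteasome gene, PSMD12 and PSMD5 were not detected on NUDT16 replicate 2. They passed the filter through the mock group only, so their lower reading is partly built into the filter.

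All differences below are NUDT16 minus mock on the log2 scale, after each array's log2 signal was shifted by its own 75th percentile over the probes detected on all arrays. Levels are on that scaled log2 signal and can be compared between arrays for 1 probe, not between genes. Standard errors of the members' differences were 0.56 to 0.83 without the block and 0.29 to 0.54 with it. The range over the 3 mock arrays alone was wider than the difference for 38 of the 47 members (80.9%, beside 92.8% of all genes).

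The median difference of the 47 tested members was -0.34, with 14 higher and 33 lower, beside -0.06 over all genes tested, of which 54.2% were lower. Among the genes detected on all 6 arrays the medians were -0.25 for the 38 members (12 higher, 26 lower) and 0.18 for all 5654 genes (39.6% lower). These medians rested mainly on replicate 2. By pair, 23, 29 and 17 of the 38 members were lower in replicates 1, 2 and 3. These were 60.5%, 76.3% and 44.7%, beside 57.6%, 38.1% and 44.7% of all such genes. The members' medians by pair were -0.15, -0.37 and 0.09, beside -0.09, 0.38 and 0.05 for all genes. In replicates 1 and 3 the members' median was thus within 0.1 of that of all genes, and the separation was in replicate 2, which holds the dim array. Without NUDT16 replicate 2 the median of the 47 members was -0.16 (all genes -0.12), without NUDT16 replicate 3 it was -0.54 (all genes -0.21), and without mock replicate 2 it was -0.24 (all genes -0.18).

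**Figure D1:**
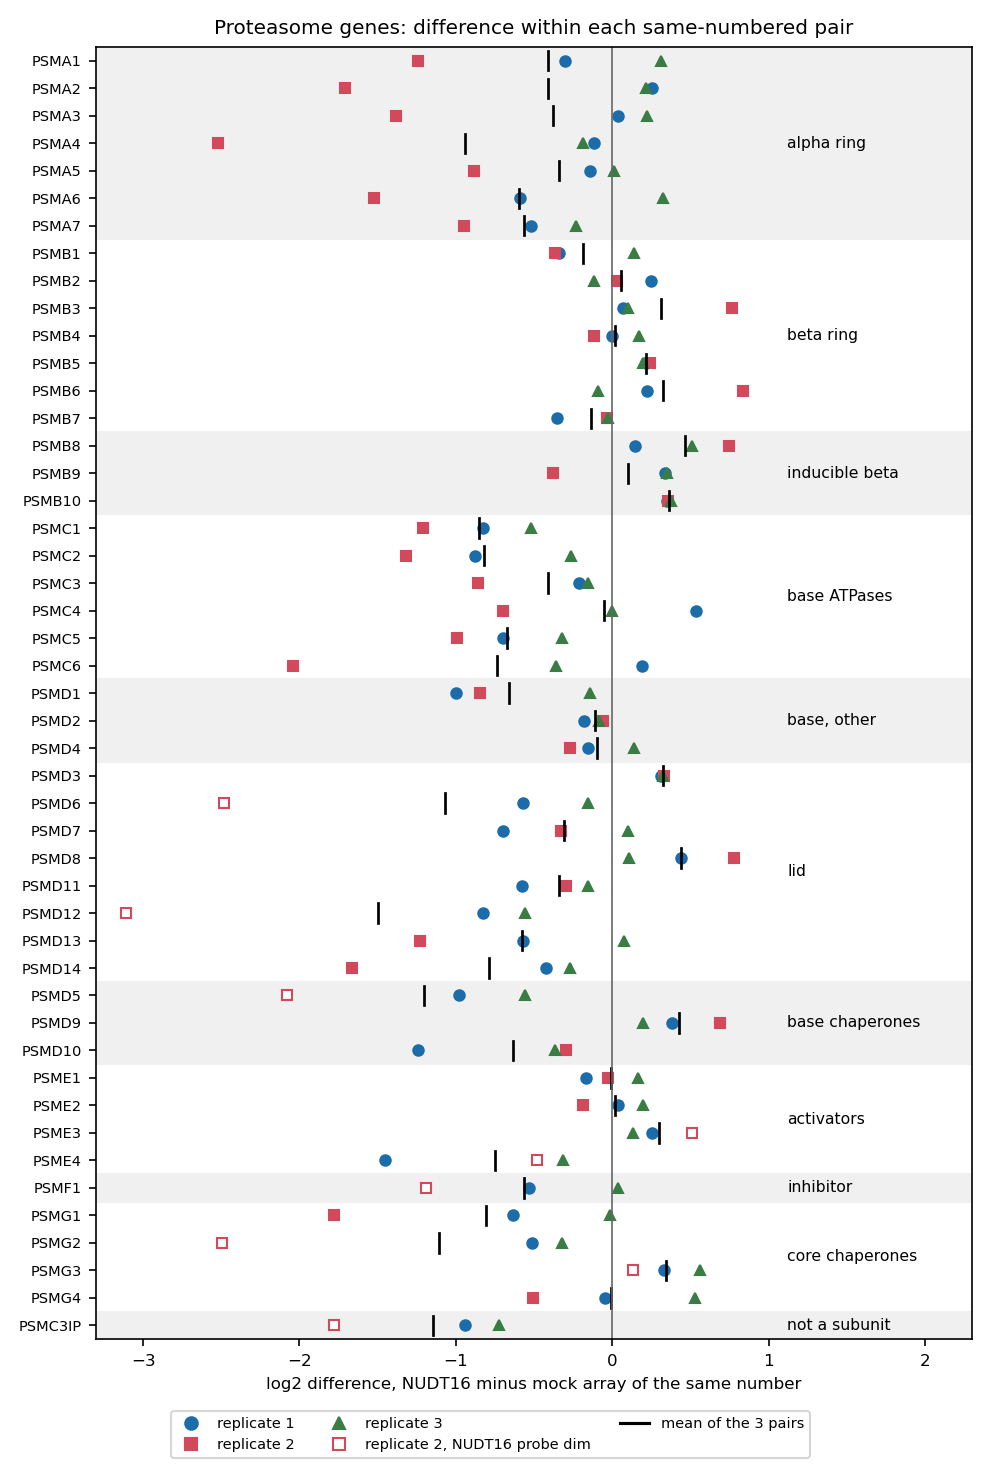
Log2 difference between the NUDT16 and the mock array of the same number (x axis) for each of the 47 tested members (y axis, grouped by role), 1 marker per replicate pair with a black bar at the mean of the 3 pairs. Open squares mark the 9 members whose probe was not well above background on NUDT16 replicate 2. The replicate 2 squares lie farthest left for all 7 alpha ring genes, whose replicate 1 and 3 markers lie between -0.59 and 0.32.

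**Figure D2:**
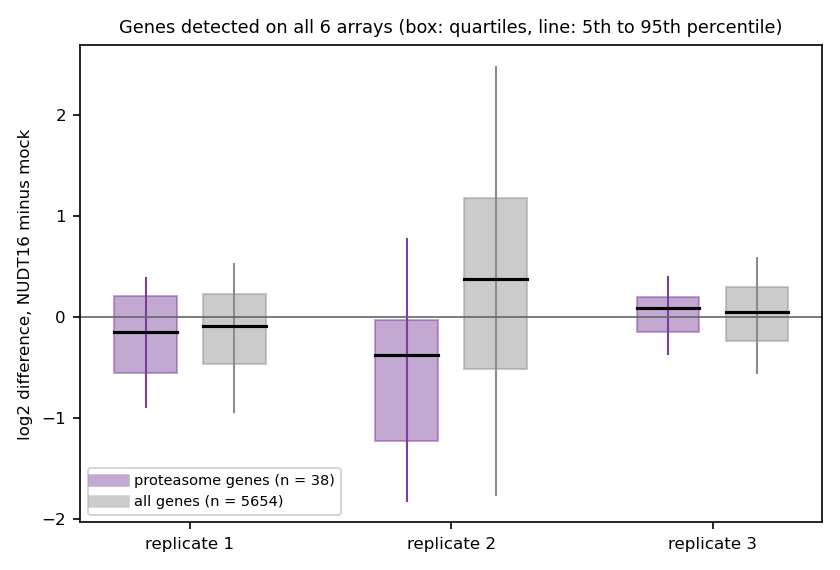
Log2 differences (y axis) within each replicate pair (x axis) for the 38 members and all 5654 genes detected on all 6 arrays; boxes span the quartiles, black bars are medians and thin lines run from the 5th to the 95th percentile. The medians of members and all genes lie close together in replicates 1 and 3 and apart in replicate 2, where they are -0.37 and 0.38.

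The alpha ring, whose N-termini form the gate of the barrel, had 7 of 7 genes lower, with a median of -0.41. Pair medians were -0.14, -1.39 and 0.22, so the largest part of the difference came from replicate 2. With replicates 1 and 3 alone 4 of the 7 were lower and 6 of the 7 lay above the median of all genes. Without NUDT16 replicate 2 only, 7 of 7 were lower (median -0.29, all genes -0.12). Without mock replicate 2 only, 6 of 7 were lower (median -0.16, all genes -0.18). PSMA4 had the lowest difference. Its scaled log2 signal was -1.05, 1.54 and 0.45 in replicates 1, 2 and 3 of the mock group and -1.17, -0.99 and 0.26 in those of the NUDT16 group. The groups overlapped, and mock replicate 2 was the highest array (difference -0.94, SE 0.75). PSMA5, the alpha gene nearest to level, read -0.07, 0.51 and 0.01 in the mock group and -0.21, -0.38 and 0.02 in the NUDT16 group. These values also overlapped (difference -0.34, SE 0.57). PSMA7 was lower in each pair too, by -0.52, -0.95 and -0.23, and the other 5 alpha genes were level or higher in at least 1 pair. The alpha probes have 36.7% to 45% G and C.

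The constitutive beta ring had 5 of 7 genes higher and 2 lower, with a median of 0.05 and pair medians of 0.07, 0.03 and 0.10. PSMB5, the chymotrypsin-like subunit that proteasome inhibitor drugs such as bortezomib bind, read 0.27, -0.92 and -0.71 in the mock group and 0.48, -0.68 and -0.51 in the NUDT16 group. Replicate 1 was highest in each group, the groups overlapped, and the pair differences were nearly equal at 0.22, 0.24 and 0.20 (mean 0.22, SE 0.63 without and 0.29 with the block). PSMB6, the caspase-like subunit, read 1.72, 1.38 and 1.32 in the mock group and 1.95, 2.21 and 1.23 in the NUDT16 group. It had the highest difference of the ring (0.32, SE 0.58), and the groups overlapped because NUDT16 replicate 3 was the lowest of the 6 arrays.

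PSMB7, the trypsin-like subunit, read 2.25, 2.05 and 2.04 in the mock group and 1.89, 2.02 and 2.01 in the NUDT16 group. It was the only member whose groups did not overlap (1 of 47, 2.13%, beside 0.599% of all genes): its lowest mock value, 2.04, lay just above its highest NUDT16 value, 2.02. Its difference was -0.14 (SE 0.56). PSMB1, a structural beta subunit, read 2.45, 2.24 and 2.01 in the mock group and 2.11, 1.88 and 2.15 in the NUDT16 group. It was the lowest of the ring at -0.19 (SE 0.56) and higher in replicate 3. PSMB2, PSMB3 and PSMB4, also without catalytic activity, differed by 0.05, 0.31 and 0.02.

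All 3 measured inducible subunits were higher, with a median of 0.36 and pair medians of 0.34, 0.36 and 0.38, beside 3413 higher of the 5654 genes detected on all 6 arrays. PSMB8, which takes the place of PSMB5 in the immunoproteasome, read -1.36, -2.66 and -2.35 in the mock group and -1.22, -1.92 and -1.84 in the NUDT16 group. It was higher in each pair (0.14, 0.74 and 0.51) but mock replicate 1 lay above the NUDT16 arrays of replicates 2 and 3. Its difference of 0.47 (SE 0.61) was the highest of all members. PSMB10, which takes the place of PSMB7, read 2.19, 2.56 and 1.46 in the mock group and 2.54, 2.92 and 1.84 in the NUDT16 group. The groups overlapped, with replicate 3 lowest in each, while the pair differences were 0.35, 0.36 and 0.38 (mean 0.36, SE 0.61 without and 0.29 with the block, adjusted p = 0.569 with the block). PSMB9, which takes the place of PSMB6, read 0.06, -0.02 and -0.77 in the mock group and 0.40, -0.40 and -0.42 in the NUDT16 group. It was higher in replicates 1 and 3 by 0.34 and 0.35 and lower in replicate 2 by -0.38, and its groups overlapped (difference 0.10, SE 0.60). The probes of PSMB8 and PSMB9 have 55.0% G and C and that of PSMB10 45%; the median difference of all genes with such probes was 0.41 and -0.07.

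**Figure D3:**
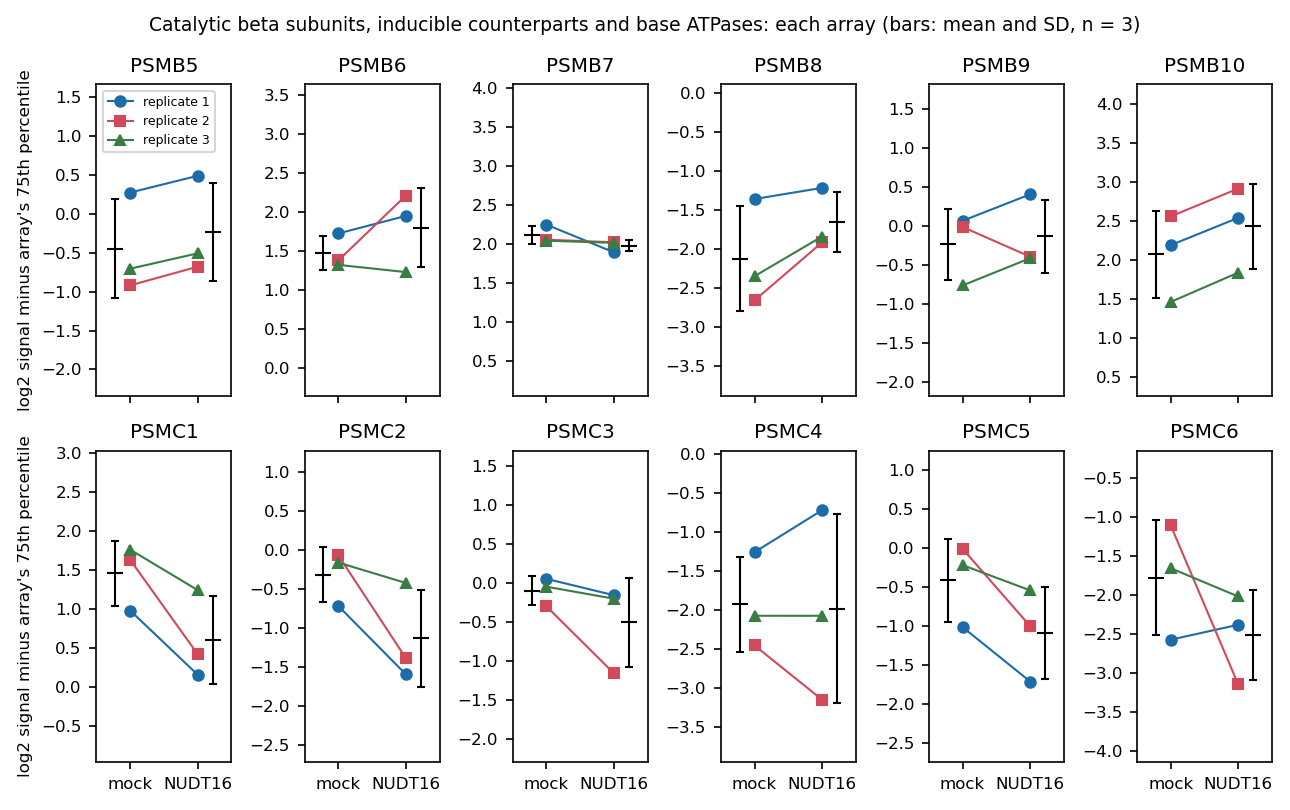
Scaled log2 signal (y axis, each panel spanning 4 log2 units around its own centre) of 6 catalytic or inducible beta subunits and the 6 base ATPases on each mock and NUDT16 array (x axis). Lines join the arrays of 1 replicate pair, and the bars beside them give mean and SD (n = 3); PSMB5 and PSMB10 lines run parallel and upward, those of PSMC1, PSMC2 and PSMC5 run downward in all 3 pairs.

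The base ATPases, which unfold substrates and thread them into the barrel, had 6 of 6 genes lower and a median of -0.70, the lowest of the multi-gene groups. The sign of PSMC4 was positive under the 4 other scalings tried, which left 5 of 6 lower. The pair medians of -0.45, -1.10 and -0.29 had 1 sign in all 3 pairs. PSMC1 read 0.98, 1.63 and 1.76 in the mock group and 0.16, 0.42 and 1.24 in the NUDT16 group. The NUDT16 arrays of replicates 1 and 2 lay below every mock array, and that of replicate 3 lay between them (difference -0.85, SE 0.60; with the block SE 0.31, unadjusted p = 0.0323, adjusted p = 0.488). A second PSMC1 probe, also detected on all 6 arrays, gave pair differences of -0.76, -1.35 and -0.51 beside -0.82, -1.21 and -0.52 for the brightest probe.

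PSMC2 and PSMC5 were also lower in each pair, by -0.88, -1.32 and -0.26 and by -0.70, -0.99 and -0.32. A second PSMC2 probe, detected on 5 arrays, gave -1.31, -1.46 and 0.37. PSMC3 was lower by -0.21, -0.86 and -0.15, and PSMC6 was higher in replicate 1 (0.19) and lower in replicates 2 and 3 (-2.04 and -0.36). PSMC4 read -1.25, -2.45 and -2.07 in the mock group and -0.72, -3.15 and -2.07 in the NUDT16 group. Its pairs disagreed in sign and its difference was -0.05 (SE 0.71). The ATPase probes have 38.3% to 50% G and C. With replicates 1 and 3 alone, the ATPase median was -0.35 and that of all genes -0.19. Against that median of all genes, 3 of the 6 ATPases lay below and 3 above.

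The other base subunits are large scaffolds and a ubiquitin receptor. PSMD1 read -0.72, -1.15 and 0.03 in the mock group and -1.72, -1.99 and -0.11 in the NUDT16 group. It was lower in each pair (-0.999, -0.85 and -0.14), with replicate 3 highest in each group and the groups overlapping (difference -0.66, SE 0.68). PSMD4, a receptor for ubiquitin chains, read 1.07, 1.45 and 0.95 in the mock group and 0.92, 1.18 and 1.09 in the NUDT16 group. The values overlapped and the difference was -0.10 (SE 0.56). PSMD2, the scaffold where shuttle factors dock, was lower by -0.18, -0.06 and -0.09 with its brightest probe and by -0.41, -0.53 and -0.32 with its second.

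The lid had 6 of 8 genes lower and a median of -0.46, with pair medians of -0.57, -0.78 and -0.04. PSMD14, the metalloprotease that removes ubiquitin chains from substrates, read -0.97, 0.44 and 0.16 in the mock group and -1.39, -1.22 and -0.11 in the NUDT16 group. It was lower in each pair, and mock replicate 1 lay among the NUDT16 values (difference -0.79, SE 0.65). PSMD8 read 0.92, 1.11 and 0.38 in the mock group and 1.35, 1.89 and 0.49 in the NUDT16 group. It was higher in each pair and highest in replicate 2 of each group (difference 0.44, SE 0.61). PSMD3, another scaffold of the lid, was the second lid gene on the higher side, with pair differences of 0.31, 0.33 and 0.32.

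PSMD12 and PSMD6, further structural lid subunits, had differences of -1.50 (SE 0.78) and -1.07 (SE 0.70), the lowest of the lid, and both were not well above background on NUDT16 replicate 2. In replicates 1 and 3, where they were detected on all 4 arrays, PSMD12 was lower by -0.83 and -0.56 and PSMD6 by -0.57 and -0.15. The probes of PSMD8 and PSMD3 have 53.3% and 48.3% G and C, and those of the 6 lid genes on the lower side 40.0% to 45%.

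Among the chaperones that assemble the base, PSMD9 was higher and PSMD10 and PSMD5 lower. PSMD9 read -0.83, -1.48 and -1.75 in the mock group and -0.45, -0.79 and -1.55 in the NUDT16 group. It was higher in each pair, with replicate 1 highest in each group and the groups overlapping (difference 0.42, SE 0.61). PSMD10, or gankyrin, read -2.01, -1.98 and 0.02 in the mock group and -3.25, -2.28 and -0.35 in the NUDT16 group. Replicate 3 stood far above the rest in each group, and the gene was lower in each pair (difference -0.63, SE 0.83). PSMD5 had a difference of -1.21 (SE 0.80) and was not well above background on NUDT16 replicate 2; its other pairs gave -0.98 and -0.56. Its 2 further tested probes, detected on 5 and 4 arrays, gave -0.25 and -0.28.

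The activators PSME1 and PSME2, partners in the interferon-inducible ring that opens the barrel without ATP, were level. PSME1 read -2.37, -2.56 and -2.23 in the mock group and -2.54, -2.58 and -2.06 in the NUDT16 group. PSME2 read 3.06, 4.32 and 3.19 in the mock group and 3.098, 4.13 and 3.38 in the NUDT16 group, with replicate 2 highest in each group. Their differences were -0.01 (SE 0.57) and 0.01 (SE 0.63), and each sign turned under another scaling. PSME3, the nuclear activator, and PSME4, the large activator with roles in spermatogenesis and DNA repair, differed by 0.30 and -0.75, each detected on 5 arrays. PSME4 was lower in each pair (-1.45, -0.48 and -0.32).

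The probes of PSMF1, the inhibitor also called PI31, disagreed. The brightest, detected on 5 arrays, gave -0.56 (pairs -0.53, -1.19 and 0.04). A further probe, detected on all 6, gave 0.45 (pairs 0.21, 1.11 and 0.03). On NUDT16 replicate 2 it read -3.35, near the lowest detected value of that array, -3.52. The remaining probes, each detected on 5 arrays, gave 0.17 and 0.02. Of the chaperones that build the core barrel, PSMG1 read -0.24, 0.20 and 0.01 in the mock group and -0.87, -1.58 and -0.01 in the NUDT16 group. It was level in replicate 3 and lower in the others, and the groups overlapped (difference -0.81, SE 0.62). Its dimerisation partner PSMG2 had a difference of -1.11 and was not well above background on NUDT16 replicate 2; its other pairs gave -0.51 and -0.32. PSMG4 read -1.79, -1.74 and -2.93 in the mock group and -1.83, -2.25 and -2.40 in the NUDT16 group. It differed by -0.01 with pairs of opposite sign, and its partner PSMG3 by 0.34 (0.33, 0.13 and 0.56). PSMG3 was not well above background on NUDT16 replicate 2, so its level there has only an upper bound. PSMC3IP, not a proteasome gene, differed by -1.15 (pairs -0.94, -1.78 and -0.73).

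Under the other 4 scalings (all spots, quantile, normexp background correction and the deposited value table), the alpha ring kept 7 of 7 genes lower, the lid 6 of 8 lower and the inducible subunits 3 of 3 higher. These scalings use the same arrays, replicate 2 included, so they cannot show whether a sign rests on that pair. With replicates 1 and 3 alone, 4 of 7 alpha genes were lower. Of the constitutive beta genes, 5 were higher with all spots and in the deposited table and 4 with quantile and normexp. Normexp moved the median of all genes to 0.46, and relative to it the inducible median was -0.15, where it was 0.43 above the median of all genes in the scaling used here. The ATPase median lay below that of all genes under each scaling, by 0.41 to 0.89.

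Counting signs within pairs among the 38 members detected on all 6 arrays, 13 (34.2%) were lower in all 3 pairs, beside 18.4% of all such genes, and 7 (18.4%) were higher in all 3, beside 27.8%. Under all 5 scalings tried, 6 members (15.8%) stayed lower in all 3 pairs: PSMA7, PSMC1, PSMC2, PSMC5, PSMD1 and PSMD14, beside 9.71% of all such genes. A further 6 (15.8%, beside 22%) stayed higher: PSMB5, PSMB8, PSMB10, PSMD3, PSMD8 and PSMD9. Set against each pair's median of all genes tested, the same 6 lower members lay below it in all 3 pairs under every scaling (15.8%, beside 8.93% of all such genes). Above it under every scaling lay 0 members (beside 7.73%), and this 0 came from normexp. In the scaling used here, all spots, quantile and the deposited table, 7, 7, 11 and 10 members lay above it. These were 18.4%, 18.4%, 28.9% and 26.3%, beside 31.8%, 31.8%, 36% and 35.9% of all such genes. A difference of at least 2-fold was reached by 5 of the 47 (10.6%, beside 7.91% of all genes), namely PSMC3IP, PSMD12, PSMD5, PSMD6 and PSMG2, all lower. Each of these was not well above background on NUDT16 replicate 2, where 9 of the 47 tested members fell short of that mark, 7 lower and 2 higher. All 9 passed the filter through the mock group only, so a lower reading is partly built into the filter for them.

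With replicates 1 and 3 alone and the pair as a block, 0 of 47 members were called, beside 242 of all genes (1.77%). The smallest adjusted p of a member in that fit was 0.109. The members' median there was -0.10 and that of all genes -0.19, so the members no longer lay below all genes.

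The share of G and C in the probe moved with the differences. Over the 47 members, Spearman's rho of this share with the difference was 0.42, and over all 13696 genes it was 0.41; genes share the same 6 arrays, so this describes these arrays. Of the 38 members detected on all 6 arrays, 8 of the 9 with a probe above 45% G and C were higher in the NUDT16 group (median 0.32), and 1886 of 2119 such genes were (median 0.42). At 45%, 11 of 12 members were lower (median -0.34; all genes -0.07), and below 45%, 14 of 17 were lower (median -0.41; all genes -0.12). The relation was strongest in replicate 2, where the members' medians were -0.99, -0.51 and 0.69 below, at and above 45%. By pair, rho over the 47 members was 0.32, 0.46 and 0.16 in replicates 1, 2 and 3. Over all 13696 genes it was 0.33, 0.40 and -0.002, so replicate 3 showed no such relation over all genes. The part of probe composition in the differences between groups of subunits was not tested.

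**Figure D4:**
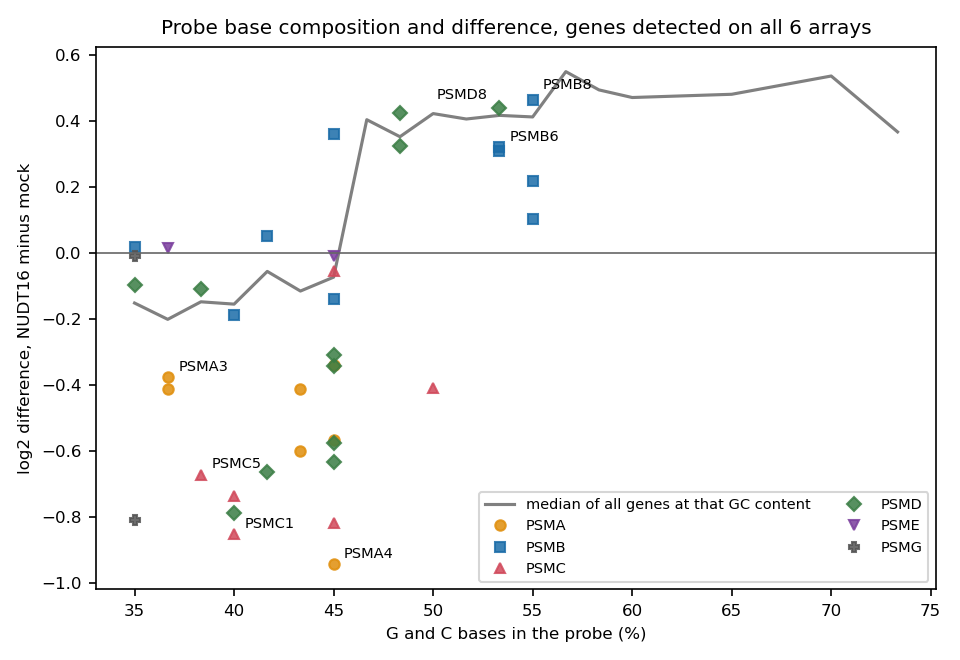
Log2 difference, NUDT16 minus mock (y axis), against the share of G and C in the probe (x axis) for the 38 members detected on all 6 arrays, with symbols by gene family; the grey line is the median of all genes detected on all 6 arrays at each GC content with at least 20 genes. The line steps from -0.07 at 45% to 0.40 at 46.7%, and PSMC3 at 50% is the only member right of that step with a negative difference.

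Of the 49 members, 17 had more than 1 probe, with 24 further probes in all. Of these, 15 were tested and 11 had the sign of the brightest probe; the exceptions were 3 probes of PSMF1 and 1 of PSMB2, whose differences were 0.05 and -0.09. PSMB1 was lower with both of its probes (-0.19 and -0.29), and PSMD1 and PSMD14 were lower with their second probes too, at -1.35 and -1.28, each detected on 5 arrays.

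Genes that work with the proteasome but fall outside the name rule gave 0 calls in any list. Of 10 further subunits and associated proteins, 8 were tested, 3 higher and 5 lower, with a median of -0.29. UBE3C, a ubiquitin ligase bound to the proteasome, had the highest difference (0.52, pairs -0.82, 2.12 and 0.26), and UCHL5, a deubiquitinase of the base, the lowest (-0.84, pairs -0.64, -1.66 and -0.21). Of 7 shuttle factors, which carry ubiquitylated proteins to the proteasome, 6 were tested, 2 higher and 4 lower (median -0.56). RAD23B, detected on 5 arrays, had the lowest difference (-1.07). Of the genes that control proteasome transcription, NFE2L1 and its activating enzyme NGLY1 differed by -0.17 and -0.46, and NFE2L2 was detected on no array. Of 9 genes for ubiquitin, its activating enzymes and the unfoldase VCP with its cofactors, 8 were tested, 5 higher and 3 lower (median 0.26), and VCP had the lowest difference (-0.23).

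Promoters were read for 42 of the 48 proteasome genes, from RefSeq on GRCh38.p14, in windows of 300 bases from 250 before to 50 after the start, on both strands, counting a gene when any of its windows held the letters. TGACNNNGC, a core of the antioxidant response element that NRF1 binds, was present for 15 of 42 genes (35.7%), beside 16.1% of all 27305 genes. CCGGAAG, an ETS-type motif, was present for 15 (35.7%, beside 12.2%), 2 copies of TTTC set apart by 2 bases, the interferon-stimulated response core, were present for 7 (16.7%, beside 4.38%), and CCAAT for 20 (47.6%, beside 39.7%). Matches of different motifs may overlap by some of their bases. PSMD12 and PSMD3 are shown because both carry the first motif and read on opposite sides of 0 (-1.50 and 0.32), and PSMB10 and PSME2 because both carry the interferon-type motif and differed by 0.36 and 0.01. Stretches before the start are written 5′ to 3′ on the strand of the gene, with the motif, or its reverse complement for the interferon-type motif, in capitals.
PSMD12, chr17:67366668-67366787, minus strand: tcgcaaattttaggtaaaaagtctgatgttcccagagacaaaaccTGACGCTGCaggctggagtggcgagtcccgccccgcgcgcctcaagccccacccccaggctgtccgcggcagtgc
PSMD3, chr17:39980707-39980806, plus strand: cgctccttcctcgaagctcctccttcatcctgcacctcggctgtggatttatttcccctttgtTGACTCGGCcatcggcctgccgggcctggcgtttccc
PSME2, chr14:24146611-24146710, minus strand: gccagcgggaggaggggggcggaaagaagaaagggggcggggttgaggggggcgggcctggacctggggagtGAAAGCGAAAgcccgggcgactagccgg
PSMB10, chr16:67936851-67936950, minus strand: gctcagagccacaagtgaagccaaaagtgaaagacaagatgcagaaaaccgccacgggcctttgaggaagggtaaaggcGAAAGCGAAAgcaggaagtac
The motif lies 165, 37, 28 and 21 bases before the start in PSMD12, PSMD3, PSME2 and PSMB10. PSMD3 has another copy after its start, which is not shown. These matches describe letters only.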

How the data were processed

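Groups and replicate numbers of the 6 arrays (3 mock, 3 NUDT16) come from the sample titles. Per the file headers, the deposited scanner files hold linear fluorescence intensity per spot from Agilent Feature Extraction 10.7.3.1 (design 039494, hg19), background subtracted within the array and not normalized between arrays. A value table deposited by the authors holds log2 values; its ranks followed spot minus background signal (Spearman's rho 0.962 to 0.997) and its medians were nearly equal between arrays (6.18 to 6.22), while its exact scaling is not given in the sources used here.

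Control spots and outlier spots were left out, spots were averaged per probe (50599 probes, 13 without a usable spot), and log2 intensity was shifted by each array's 75th percentile over the 6582 probes detected on all 6 arrays, since only 14.6% of spots were detected on the dimmest array. The brightest probe per gene was tested in limma 3.58.1 (R 4.3.3; lmFit, eBayes, two-sided, Benjamini-Hochberg over 13696 genes), without and with the replicate pair as a block. Deviations from the group means correlated within pairs (r = 0.84, 0.40 and 0.76), and each pair shared a slide, so the numbers pair the arrays. With 3 arrays against 3, the number of arrays limits the precision. Scripts were tested on simulated data. For 48 of 49 members the array's accession matched RefSeq under the same symbol.

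Members and lists were chosen with earlier results of these data known. Values on every array are given for the members of each role with the highest and lowest difference among those detected on all 6 arrays, and for the catalytic and inducible beta subunits; the activators, inhibitor and core chaperones are named throughout, and the highest and lowest gene of lists outside the name rule, some of which are not reported here. Other names were chosen after their values were seen. Alternatives were all-spot scaling, quantile normalization, normexp background correction, other filters, the deposited log2 values, averaging all probes of a gene, and leaving out arrays.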

Additional observations from a re-analysis of the deposited data

How the results depend on the processing

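No proteasome gene was called under any of the 15 alternatives, and the median of the members stayed below 0, from -0.54 to -0.10. The count of all genes called was 1, and it became 0 with normexp background correction, with no filter and with a filter on all 6 arrays (1, 134 and 1 genes at an unadjusted p under 0.05 in limma). With replicates 1 and 3 and their replicate block, 242 genes were called. With the replicate block on all arrays the count was 1, the median of the members -0.34, and no call changed. Leaving out 1 array gave 1 to 1 genes called, 0 to 0 members called and medians of -0.54 to -0.16. The median of all genes moved with the scaling, to 0.02 with all spots, -0.18 with quantile normalization, 0.46 with normexp and -0.15 in the deposited value table; the members' median lay 0.28, 0.13, 0.64 and 0.08 below it there. With replicates 1 and 3 alone the members' median (-0.10) lay 0.09 above that of all genes (-0.19).

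Of the 21 members given on every array, 13 kept their sign under every alternative. PSMC4 reversed to 0.0357 with all-spot scaling, 0.0141 with quantile normalization, 0.42 with normexp, 0.0036 in the deposited table and 0.27 with replicates 1 and 3. PSME1 reversed to 0.0788, 0.11, 0.29 and 0.22 under the first 4 of these, and PSMG4 to 0.0800, 0.13, 0.23, 0.21 and 0.24 under all 5. PSME2 reversed to -0.0625, -0.11 and -0.0875 with quantile normalization, normexp and the deposited table. Leaving out 1 array moved PSMC4 from -0.68 to 0.53, PSME1 from -0.18 to 0.0847, PSME2 from -0.28 to 0.41, PSMG4 from -0.40 to 0.20, PSMB5 from -0.14 to 0.58, PSMB9 from -0.17 to 0.25, PSMD4 from -0.20 to 0.0518 and PSMD10 from -1.44 to 0.0364. The cause was not tested. On NUDT16 replicate 2, 9 of the tested members lay at or near background, so their levels there have only an upper bound.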
